A study of Homo sapiens with 3 samples.

Results

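The genes described here encode the nutrient sensing machinery that connects the Sestrins and AMP-activated protein kinase (AMPK) to the mTOR complexes. They were chosen by name, as 44 genes of the Sestrin, AMPK, TSC, mTOR, Rag, GATOR, FOXO and AKT groups, and each of the 44 was represented by the brightest probe set that names that gene alone. All 44 were measured, out of 18417 genes measured in this way. RNA was taken from 3 cultures and each was hybridized to 1 Affymetrix Human Gene 1.0 ST array. LoVo-R8 cells were grown either with irinotecan at 8 μM or without irinotecan, and the last culture was parental LoVo. LoVo is an established human colorectal cancer cell line, from which LoVo-R8 was selected in rising irinotecan concentrations, from 0.1 to 8 μM. Irinotecan is a camptothecin derivative whose active metabolite traps topoisomerase I on DNA. The sources used here do not say if LoVo-R8 is 1 clone. A treatment text that the labels of all 3 arrays share mentions irinotecan 24 hours ahead of RNA purification. They do not say if parental LoVo was given the drug. The groups follow the labels, but a figure legend of the study names the drug-free LoVo-R8 data as those used, whereas the fold changes in its gene list are those of the array labelled as with irinotecan. Which is right was not settled, and if the labels of the LoVo-R8 arrays were exchanged, every direction between with and without irinotecan below would turn.

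The deposited values are log2 levels from robust multichip average (RMA) normalization, and every difference below is a subtraction of log2 levels, so that 1 unit is 2-fold. With 1 array per culture there are no replicates, so values carry no error and no difference was tested. A level is an average over the culture, in which a difference in some of the cells and a smaller one in all of them cannot be told apart. The array medians lay between 6.94 and 6.95. The LoVo-R8 arrays differed from each other by less than 0.53 for 95% of genes. Of the 44 genes, 42 reached the array median on at least 1 array, and PRKAG3 and ULK2 did not. The epithelial genes EPCAM, KRT8 and KRT18 were at 11.90 or above in every culture. None of 4 endothelial markers reached the array median. Of 6 fibroblast markers 1 did with irinotecan, 2 without it and 1 in parental LoVo, while DCN and LUM were at 4.10 or below. Of 5 immune markers CD68 and LYZ did in every culture, CD68 at 11.51, 11.12 and 9.64, while PTPRC was at 4.12 in each. Of 10 colon epithelial markers, 8 reached the array median with irinotecan, 7 without it and 8 in parental LoVo, and their median level was 9.39, 8.78 and 10.93. In the same order, CEACAM5 had levels of 10.39, 10.13 and 12.50 and LGALS4 had 8.59, 8.33 and 10.60. CDH1 was also lower in both LoVo-R8 cultures, at 8.20 without irinotecan against 11.26 in parental LoVo. CDX2 was higher in both, at 9.79, 9.23 and 8.88, as was TFF3 by less, at 5.94, 6.05 and 5.90. The steady high levels of EPCAM, KRT8 and KRT18 thus do not stand for the whole list. KRT20 and TFF3 lay below the array median in every culture. The part of this in the results below was not tested.

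Sestrins are stress-inducible proteins that restrain mTOR complex 1 (mTORC1), in part by binding the GATOR2 complex and in part through AMPK. AMPK is a trimer of a catalytic, a scaffold and a nucleotide-binding subunit, which is switched on when cellular energy is low. mTORC1 promotes protein synthesis and blocks autophagy when amino acids and growth factors are at hand. Amino acids reach it through the Rag GTPases on the lysosome, which GATOR1 holds off, and growth factors reach it through AKT, the TSC complex and RHEB. FOXO factors, which AKT keeps out of the nucleus, transcribe genes of stress resistance, among them SESN3.

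Few of the 44 genes were 2-fold or more from parental LoVo, and more were at least 1.5-fold from it. In LoVo-R8 cells with irinotecan, SESN3 and CITED2 were at least 2-fold higher than in parental LoVo and 0 of the 44 were at least 2-fold lower. In this comparison 2.25% of all genes were higher by this measure and 2.3% were lower. In LoVo-R8 cells without irinotecan, SESN3 and PRKAB2 were at least 2-fold higher and RRAGD was at least 2-fold lower, against 1.64% and 2.78% of all genes. The median difference of the 44 genes was -0.03 with irinotecan and 0.00 without it, and that of all genes was 0.00 in both. Without regard to sign, the median was 0.231 with irinotecan and 0.21 without it, against 0.144 and 0.17 for all genes. All genes were counted at any level, dim ones included, while 42 of the 44 reached the array median. The part of signal level in this contrast and in the 1.5-fold shares was not tested. At 1.5-fold, 6 genes (13.6%) were higher and 4 (9.09%) lower with irinotecan, against 5.79% and 7.19% of all genes. Without irinotecan, 8 (18.2%) were higher and 6 (13.6%) lower, against 4.37% and 8.84% of all genes. Both comparisons share the single parental array. Of the 44 genes, 6 (13.6%) were at least 1.5-fold higher in both LoVo-R8 cultures, against 3.16% of all genes. They were SESN3, PRKAA1, PRKAA2, PRKAB2, RICTOR and CITED2. Those at least 1.5-fold lower in both were MTOR and RPS6KB2, or 4.55% of the 44, against 5.4% of all genes. At the other end, 16 of the 44 genes (36.4%) kept all 3 levels within 0.2, as did 41.6% of all genes.

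**Figure D1:**
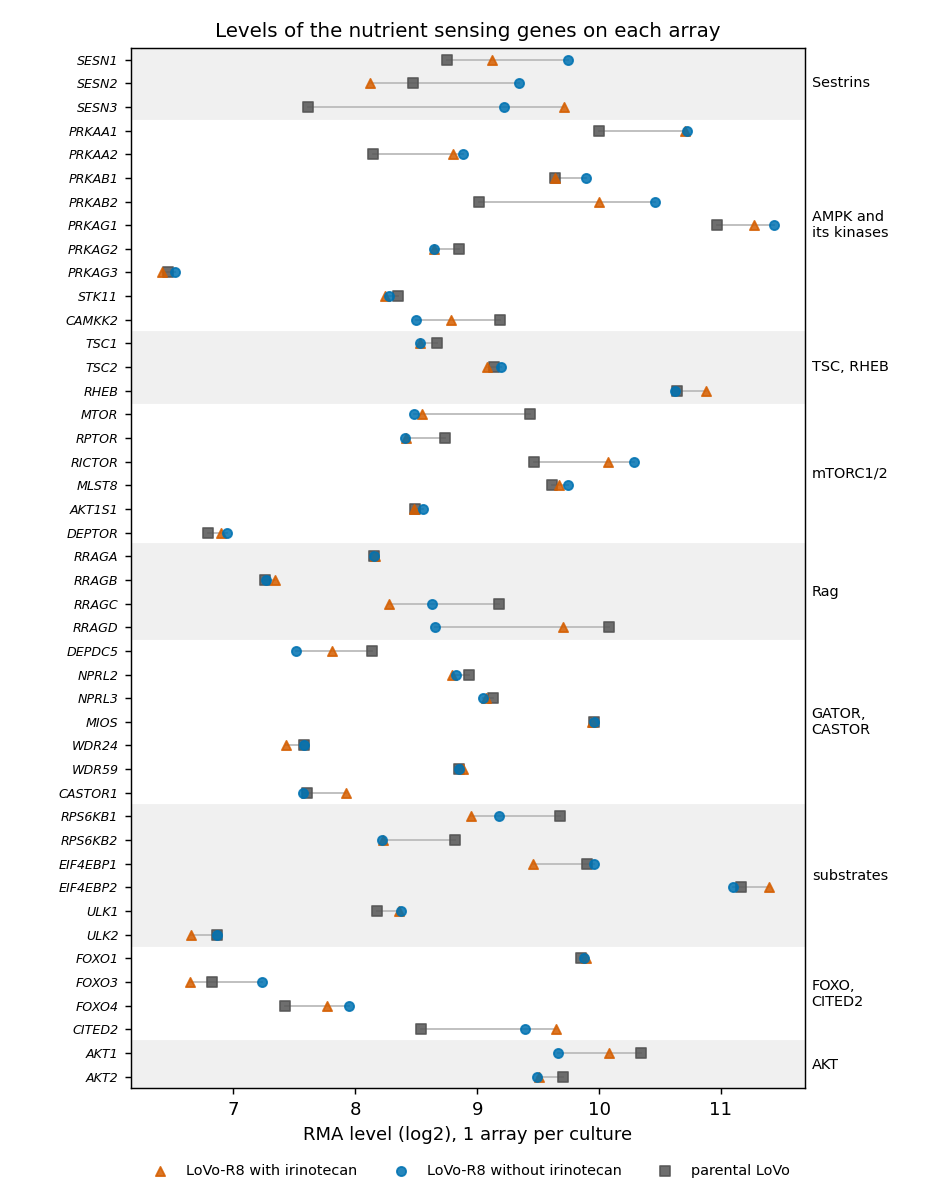
RMA log2 level (horizontal axis) of each of the 44 genes in LoVo-R8 with irinotecan (triangles), LoVo-R8 without irinotecan (circles) and parental LoVo (squares), 1 array each, grouped by complex. The widest gap is that of SESN3, at 9.72, 9.22 and 7.61. Levels of different genes come from different probes and are not comparable with each other.

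The Sestrins had the largest group medians, 0.37 with irinotecan and 0.99 without it, and each of the 3 had a pattern of its own. SESN3, at chr11:95165513-95232475 (GRCh38.p14), had a level of 9.72 in LoVo-R8 cells with irinotecan, 9.22 in LoVo-R8 cells without it and 7.61 in parental LoVo. It was high in both resistant cultures, 4.29-fold and 3.04-fold above the parental one. SESN1, a p53-induced Sestrin at chr6:108984309-109094846, had levels of 9.13, 9.75 and 8.76 in the same order. It was highest without the drug, at 1.99-fold of the parental level, and was at 1.29-fold with it. SESN2, a Sestrin induced by p53 and by the amino acid response factor ATF4, lies at chr1:28259518-28282491 and had levels of 8.12, 9.34 and 8.47. It was thus above parental LoVo in the drug-free resistant culture (0.87) and below it in the culture with irinotecan (-0.36). Between the LoVo-R8 cultures, SESN2 was 2.34-fold lower with irinotecan, and SESN1 1.54-fold lower, while SESN3 had a difference of 0.50 in the opposite direction. SESN2 was the gene with the 10th lowest difference of all 18417 genes in that comparison.

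The promoters of the 3 Sestrin genes are shown because their RNAs had different patterns. Each is the RefSeq window on GRCh38.p14, 250 bases before to 50 bases after the annotated start, written 5′ to 3′ on the strand of the gene. SESN1 is at chr6:109094797-109095096 (minus strand), SESN2 at chr1:28259268-28259567 (plus strand) and SESN3 at chr11:95232426-95232725 (minus strand).
SESN1: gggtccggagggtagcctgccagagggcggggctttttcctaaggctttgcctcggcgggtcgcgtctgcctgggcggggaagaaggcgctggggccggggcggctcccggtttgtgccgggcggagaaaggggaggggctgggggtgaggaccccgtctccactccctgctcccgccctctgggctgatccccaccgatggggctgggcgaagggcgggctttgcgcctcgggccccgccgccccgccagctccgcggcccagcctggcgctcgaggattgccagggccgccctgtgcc
SESN2: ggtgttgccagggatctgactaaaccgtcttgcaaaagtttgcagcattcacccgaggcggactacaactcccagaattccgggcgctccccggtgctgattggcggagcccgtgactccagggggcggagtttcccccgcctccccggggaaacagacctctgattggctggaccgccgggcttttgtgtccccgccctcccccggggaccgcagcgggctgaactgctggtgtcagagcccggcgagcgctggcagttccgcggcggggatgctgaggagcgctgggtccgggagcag
SESN3: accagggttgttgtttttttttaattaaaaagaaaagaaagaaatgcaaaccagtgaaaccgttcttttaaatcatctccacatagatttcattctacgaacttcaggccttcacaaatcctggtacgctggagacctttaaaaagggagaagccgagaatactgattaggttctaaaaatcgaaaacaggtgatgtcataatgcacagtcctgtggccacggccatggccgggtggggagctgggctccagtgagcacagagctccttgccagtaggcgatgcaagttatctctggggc
The SESN3 window was 45% G or C, against 67% for SESN2 and 75% for SESN1. In all, 3 motifs were looked for on both strands. They were TGTTTAC, bound by FOXO factors, CACGTG, the E-box bound by the TFEB family and other factors, and TGATGCAA, bound by ATF4 with a C/EBP partner. None of these letters occur in the 3 Sestrin windows, which says nothing about sites elsewhere. Of 35116 promoters of this length, 3.42% hold TGTTTAC, 7.26% hold CACGTG and 0.866% hold TGATGCAA. Among the 14237 of them that belong to measured genes, the shares are 2.45%, 8.88% and 0.73%. Promoters were matched for 37 of the 44 genes, of which 2 hold TGTTTAC (STK11 and FOXO4), 5 hold CACGTG and 1 holds TGATGCAA. A match is a description of the letters and not a binding site.

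Of the AMPK genes, those for the catalytic subunits and for a single scaffold subunit were at least 1.5-fold higher in both resistant cultures. PRKAB2, which encodes the beta 2 scaffold subunit at chr1:147155106-147172470, had a level of 10.00 in LoVo-R8 cells with irinotecan, 10.46 in LoVo-R8 cells without it and 9.01 in parental LoVo. It was 1.98-fold above the parental level with the drug and 2.72-fold above it without. The other scaffold gene, PRKAB1, had 9.64, 9.89 and 9.64. The catalytic alpha 1 gene PRKAA1 had 10.70, 10.72 and 10.00, and the alpha 2 gene PRKAA2 had 8.80, 8.89 and 8.14. Both catalytic genes therefore lay 0.66 to 0.75 above parental LoVo, with similar values in the 2 resistant cultures. The nucleotide-binding subunit gene PRKAG1 had smaller differences of 0.30 and 0.47, PRKAG2 had -0.20 and -0.20, and PRKAG3, which is known from skeletal muscle and was dim here, had -0.05 and 0.06.

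The kinases that switch AMPK on were not higher. STK11, which encodes the kinase LKB1, had levels of 8.24, 8.28 and 8.35 in LoVo-R8 with irinotecan, LoVo-R8 without it and parental LoVo, all within 0.2 of each other. CAMKK2, the calcium-dependent kinase gene, had 8.78, 8.50 and 9.19, so it was lower in both resistant cultures and lowest without the drug (-0.69). The median of the 9 AMPK and upstream kinase genes was 0.00 with irinotecan and 0.25 without it. The 0.00 is the value of PRKAB1, whose deposited levels were equal on those arrays.

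The mTOR kinase and its partners went in different directions. MTOR, whose product is the catalytic subunit of both mTOR complexes, had a level of 8.54 in LoVo-R8 cells with irinotecan, 8.49 in LoVo-R8 cells without it and 9.44 in parental LoVo. It was 1.86-fold and 1.93-fold lower than in parental LoVo, the lowest of the 6 complex subunits in both. RICTOR, the scaffold of mTOR complex 2 (mTORC2), had 10.07, 10.29 and 9.46, which is 1.53-fold and 1.77-fold higher. RPTOR, the scaffold of mTORC1, had 8.41, 8.41 and 8.74, differences of -0.32 and -0.33. The shared subunit gene MLST8 (0.05 and 0.13), the mTORC1 inhibitor gene AKT1S1 (-0.01 and 0.07) and the inhibitor gene DEPTOR (0.10 and 0.16) were near their parental levels. Upstream of mTORC1, TSC1 (-0.14 and -0.14) and TSC2 (-0.06 and 0.06), which turn RHEB off, were also near theirs. RHEB, the GTPase that activates mTORC1, had differences of 0.24 and -0.01 by its brighter probe set and 0.10 and -0.07 by its other one.

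**Figure D2:**
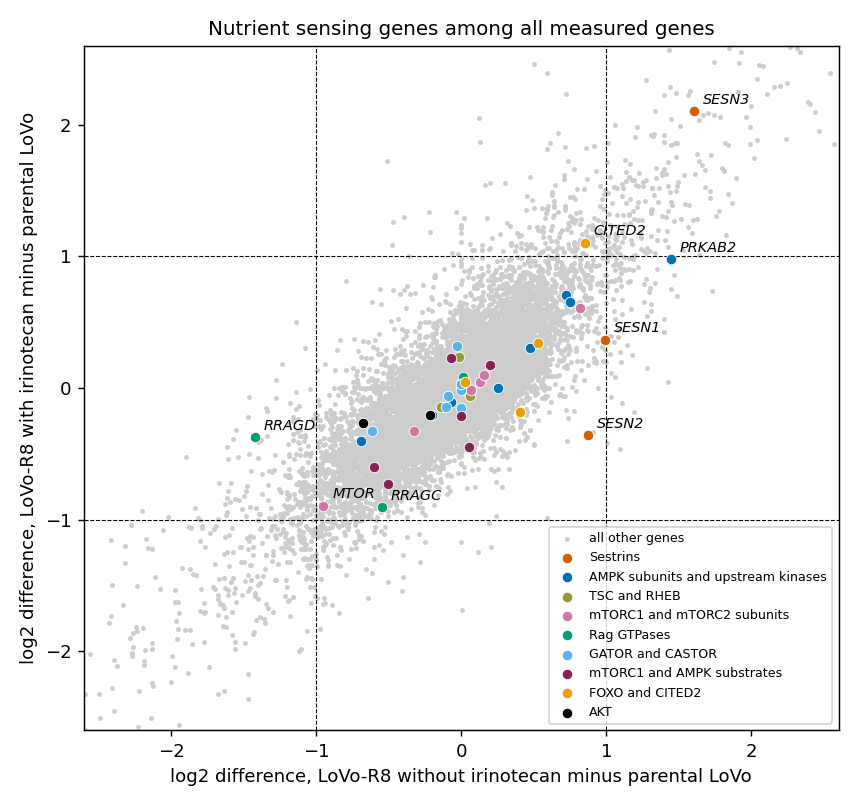
Log2 difference from parental LoVo in LoVo-R8 without irinotecan (horizontal axis) and with irinotecan (vertical axis), with the 44 genes coloured by group over all measured genes (grey) and dashed lines at 2-fold. SESN3 lies beyond 2-fold on both axes, while SESN2 (-0.36 with irinotecan and 0.87 without it) and RRAGD (-0.37 with it and -1.42 without it) lie away from the diagonal. The axes end at 2.6, which leaves out 93 genes, and both axes share the parental array.

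Of the 4 Rag GTPases, the genes for RagC and RagD were lower and those for their dimer partners were not. RRAGD, at chr6:89364616-89412273, had a level of 9.70 in LoVo-R8 cells with irinotecan, 8.65 in LoVo-R8 cells without it and 10.08 in parental LoVo. It was low in the drug-free resistant culture, 2.69-fold below parental LoVo, and much closer to it in the culture with irinotecan, at 1.30-fold below. RRAGC, at chr1:38838198-38859772, had 8.27, 8.63 and 9.18, and was 1.87-fold lower with irinotecan and 1.46-fold lower without it. The resistant culture in which the RNA was lower was thus not the same for the 2 genes. RRAGA had differences of 0.01 and 0.00 from parental LoVo, and RRAGB of 0.09 and 0.01.

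RRAGD is a known target of the TFEB family of lysosomal transcription factors, which bind E-boxes, but its promoter was not analysed here. The windows of RRAGB and RRAGC are shown because both hold CACGTG, in capitals, while their RNAs differed. RRAGB is at chrX:55717499-55717798 (plus strand) and RRAGC at chr1:38859723-38860022 (minus strand).
RRAGB: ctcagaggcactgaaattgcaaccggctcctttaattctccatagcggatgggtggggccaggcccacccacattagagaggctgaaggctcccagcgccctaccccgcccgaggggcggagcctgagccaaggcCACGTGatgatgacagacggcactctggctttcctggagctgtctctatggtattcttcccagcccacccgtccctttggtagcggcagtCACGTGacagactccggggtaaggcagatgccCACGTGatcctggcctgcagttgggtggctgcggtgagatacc
RRAGC: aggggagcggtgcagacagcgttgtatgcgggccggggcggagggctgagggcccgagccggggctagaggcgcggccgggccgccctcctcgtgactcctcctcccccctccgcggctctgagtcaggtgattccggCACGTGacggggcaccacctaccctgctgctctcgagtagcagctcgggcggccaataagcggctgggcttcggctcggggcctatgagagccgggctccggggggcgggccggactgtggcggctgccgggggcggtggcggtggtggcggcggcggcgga
The RRAGB window holds the E-box at 3 positions and the RRAGC window at 1. The other windows with CACGTG were those of TSC2, NPRL3 and CITED2. In TSC2 it overlaps the only TGATGCAA found. TFEB itself had differences of -0.05 with irinotecan and 0.10 without it, TFE3 of -0.23 and 0.07, and MITF of -0.27 and -0.04.

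Of the 7 GATOR and CASTOR genes among the 44, which pass the amino acid signal to the Rags, DEPDC5 alone was at least 1.5-fold from parental LoVo. DEPDC5, a GATOR1 subunit, had levels of 7.81 in LoVo-R8 with irinotecan, 7.52 in LoVo-R8 without it and 8.14 in parental LoVo, and was 1.54-fold lower without the drug. CASTOR1, the arginine sensor that binds GATOR2, had 7.92, 7.57 and 7.60, a difference of 0.32 with irinotecan only. The other GATOR1 genes NPRL2 (-0.14 and -0.11) and NPRL3 (-0.06 and -0.09) and the GATOR2 genes MIOS (-0.02 and 0.00), WDR24 (-0.15 and 0.00) and WDR59 (0.03 and 0.00) were within 0.2 of parental LoVo in both.

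Both S6 kinase genes were lower in the resistant cultures. RPS6KB1, which encodes the mTORC1 substrate p70S6K, had a level of 8.95 in LoVo-R8 cells with irinotecan, 9.18 in LoVo-R8 cells without it and 9.68 in parental LoVo, or 1.66-fold and 1.42-fold lower. RPS6KB2 had 8.22, 8.22 and 8.82, or 1.51-fold and 1.52-fold lower. Of the translation repressors that mTORC1 inactivates, EIF4EBP1 had differences of -0.45 with irinotecan and 0.05 without it, and EIF4EBP2 had 0.23 and -0.07. The autophagy kinase ULK1, a substrate of both AMPK and mTORC1, had 0.17 and 0.20, and ULK2 had -0.21 and 0.00. AKT1 had levels of 10.08, 9.67 and 10.35 and was lowest in the drug-free resistant culture (-0.68). AKT2 had differences of -0.20 and -0.22.

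None of the FOXO genes was 1.5-fold from parental LoVo. FOXO1 had levels of 9.89 in LoVo-R8 with irinotecan, 9.88 in LoVo-R8 without it and 9.85 in parental LoVo. FOXO4 had 7.77, 7.95 and 7.42, differences of 0.35 and 0.53. FOXO3, at chr6:108559825-108684774 and so close to SESN1 on chromosome 6, had 6.64, 7.23 and 6.83. Like SESN1 it was highest without the drug, and was 1.51-fold lower with irinotecan than without it. A brighter probe set that names FOXO3 together with its copy FOXO3B was nearly level, at 10.23, 10.19 and 10.16, so the FOXO3 value is uncertain.

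CITED2, a coregulator of the CBP and p300 acetyltransferases and a FOXO target in other cells, was high in both resistant cultures. Its level was 9.65 in LoVo-R8 cells with irinotecan, 9.39 in LoVo-R8 cells without it and 8.54 in parental LoVo, or 2.15-fold and 1.80-fold above the parental one. Apart from SESN3 it was the only gene of the 44 at least 2-fold higher with irinotecan. Its promoter, at chr6:139374599-139374898 (minus strand), is shown because, of the SESN3, PRKAB2 and CITED2 windows, it alone holds a searched motif, CACGTG in capitals.
CITED2: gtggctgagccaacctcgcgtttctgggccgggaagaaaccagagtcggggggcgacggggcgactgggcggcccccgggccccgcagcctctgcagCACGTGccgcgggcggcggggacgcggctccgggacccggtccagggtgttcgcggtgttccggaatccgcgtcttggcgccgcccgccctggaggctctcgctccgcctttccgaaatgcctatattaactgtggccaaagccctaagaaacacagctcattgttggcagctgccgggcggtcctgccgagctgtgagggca
The gene itself lies at chr6:139371807-139374648.

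The loci of SESN3, PRKAB2, RRAGD and CITED2 were picked for being 2-fold or more from parental LoVo in either resistant culture. The measured genes on either side were not picked by value, so their smaller medians do not show that a difference was local. A difference shared along a stretch was not tested. For SESN3, the 10 nearest measured genes on chromosome 11 had a median difference of 0.11 with irinotecan and 0.02 without it. Among them, the Notch coactivator gene MAML2, was more than 2-fold higher in both (1.72 and 1.42). The medians were 0.02 and 0.04 around PRKAB2 and 0.16 and 0.28 around CITED2, where ADGRG6 had 0.81 and 1.16. Around CITED2 the values ran from -0.05 to 0.81 with irinotecan and from 0.00 to 1.16 without it. Around RRAGD the medians were -0.19 and -0.16, and UBE2J1, which lies in that stretch, had -0.87 and -1.10. The values there ran from -0.87 to 0.04 with irinotecan and from -1.10 to 0.105 without it.

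Between the LoVo-R8 cultures, 4 of the 44 genes (9.09%) were at least 1.5-fold apart, against 3.95% of all genes. RRAGD was 2.07-fold higher and SESN2 2.34-fold lower with the drug than without it, and these were the only 2 past 2-fold. The RRAGD call did not hold with repeated quantile normalization (0.996). Of all genes, 0.527% were higher by as much and 0.114%, or 21 genes, were lower. At 1.5-fold, RRAGD was the only higher gene, and SESN1, SESN2 and FOXO3 were lower, against 2.87% and 1.08% of all genes. The FOXO3 call is uncertain, because the brighter probe set it shares with FOXO3B had a difference of 0.04. The other 40 genes lay between -0.50 (EIF4EBP1) and 0.50 (SESN3). This comparison does not use the parental array.

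**Figure D3:**
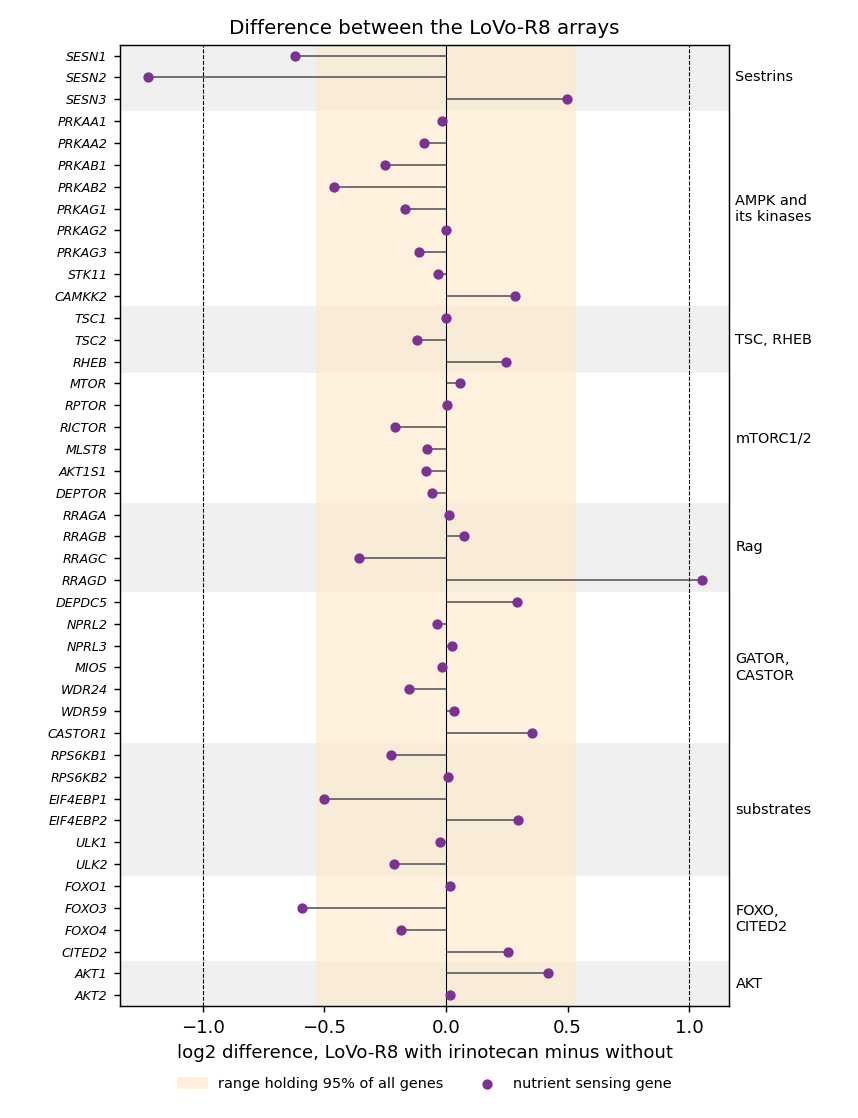
Log2 difference between LoVo-R8 with irinotecan and LoVo-R8 without it (horizontal axis) for each of the 44 genes, with dashed lines at 2-fold and a shaded band of 0.53 on either side of 0 that holds 95% of all genes. In all, 4 genes lie outside the band, RRAGD to the right and SESN2, SESN1 and FOXO3 (an uncertain value) to the left.

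Further genes of the pathway were taken from lists of its other parts, of which 99 of 111 were measured. With irinotecan, 3 were at least 2-fold higher and 0 lower than in parental LoVo, against 2.25% and 2.3% of all genes. Without it 4 were higher and 3 lower, against 1.64% and 2.78% of all genes. PRR5L, which encodes a mTORC2 subunit, had a level of 10.27 in LoVo-R8 cells with irinotecan, 10.41 in LoVo-R8 cells without it and 8.42 in parental LoVo, or 3.61-fold and 3.98-fold higher. INPP4B, a phosphatase gene of the PI3K pathway, had 8.32, 8.31 and 5.68. It was higher in both resistant cultures, but the parental level was dim, at percentile 29.3 of its array, and no fold is given. NUAK2, an AMPK-related kinase gene, was 2.87-fold and 2.16-fold higher. CCNG2, a FOXO target that encodes cyclin G2, was 1.71-fold and 2.15-fold higher.

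DDIT4, whose product REDD1 restrains mTORC1 through the TSC complex under stress, lay on the same sides of parental LoVo as SESN2. Its level was 9.12 in LoVo-R8 cells with irinotecan, 10.70 in LoVo-R8 cells without it and 10.11 in parental LoVo. It was 2.99-fold lower with the drug than without it, the 2nd lowest difference of all 18417 genes. DDIT4 was the only one of the 99 genes past 2-fold in that comparison.

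Without irinotecan, the 3 genes at least 2-fold lower were SEC13, the AMPK-related kinase gene MARK1, which was below the array median in every culture, and BCL2L11, which encodes the cell death protein BIM. SEC13 (-0.86 and -1.08) and SEH1L (-0.83 and -0.67), which serve both GATOR2 and the nuclear pore, were the lowest of their list. In the Ragulator and folliculin list, LAMTOR3 had -0.40 and -0.72 and FNIP1 had -0.57 and -0.55. All 5 measured genes of the LKB1 complex and the other AMPK kinases were within 0.4 of parental LoVo. None of the 8 genes of the autophagy initiation complexes and none of the 8 translation factors reached 2-fold, and ULK3 (-0.64 and -0.81) and EIF4G1 (-0.41 and -0.59) had the lowest values without irinotecan. Of the 8 autophagy genes, 7 were below parental LoVo with irinotecan (median -0.30) and 6 without it (median -0.21). Of all 18417 genes, 8233 were below parental LoVo with irinotecan and 7087 without it, by any amount. The medians of the translation factors were 0.01 and -0.02. Of all genes, 2.25% were at least 2-fold higher and 2.3% lower with irinotecan, and 1.64% and 2.78% without it. Of 15 FOXO target genes, 0 were past 2-fold with irinotecan, and CCNG2 (higher) and BCL2L11 (-1.02) were without it. The list's median was 0.01 and 0.21. Of 10 peroxiredoxins and other Sestrin partners, 5 were at least 1.5-fold lower and 0 higher without irinotecan, against 8.84% and 4.37% of all genes. With irinotecan 0 were lower and 1 was higher, PRDX3 (0.67), against 7.19% and 5.79% of all genes. PRDX3, a mitochondrial peroxiredoxin gene, was named after its value was seen. PRDX1, a peroxiredoxin gene, had levels of 11.88, 11.14 and 11.88, and the Sestrin partner gene KEAP1 had differences of -0.54 and -0.69.

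**Figure D4:**
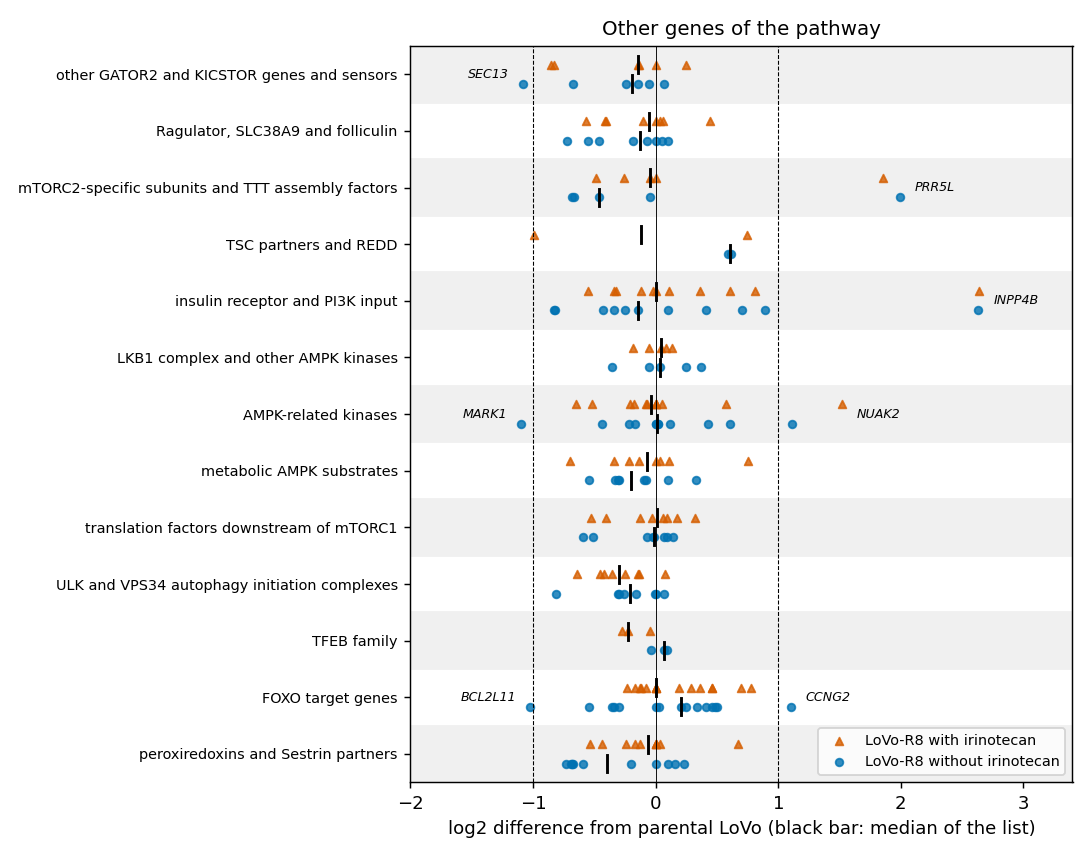
Log2 difference from parental LoVo (horizontal axis) of 99 further pathway genes by list, in LoVo-R8 with irinotecan (triangles) and without it (circles), with black bars at the list medians and dashed lines at 2-fold. INPP4B (2.64 and 2.63) and PRR5L (1.85 and 1.99) lie farthest to the right, with INPP4B dim in parental LoVo.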

How the data were processed

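The platform was the Affymetrix Human Gene 1.0 ST array, used for 1 RNA sample from each of 3 cultures. The authors deposited log2 levels for 33297 probe sets, made by RMA, which subtracts background, sets all arrays to the same quantiles and fits each probe set by median polish. R and Bioconductor are named in the methods, Affymetrix Expression Console 1.1 in the submitters' processing notes, and which of them gave the deposited values is not stated. In these values 26.1% of probe sets were equal on at least 2 arrays to the last digit deposited, with no tolerance.

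Genes were assigned through the platform annotation, and 1754 probe sets naming several genes were left out of gene values. Of 19460 single-gene probe sets, 19429 matched RefSeq by Entrez identifier. Positions and promoters come from RefSeq on GRCh38.p14, and probe sets were not placed within exons or UTRs. In the further lists 12 genes, and among promoters those of MLST8, AKT1S1, DEPTOR, RRAGA, RRAGD, WDR24 and EIF4EBP1, were not analysed here.

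Log2 levels were subtracted and counted at 2-fold, the fold criterion of the methods. No test was run because each condition has 1 array, which limits the precision. The calculation was checked on simulated data. The 44 genes and the lists were chosen with earlier results of these data known, and PRKAB2, SESN2 and SESN3 are among the genes the study singled out on these arrays, so their directions are not independent evidence. All 44 were named, and of each other list up to 3 genes with the largest difference from parental LoVo could be named. Alternatives were 1.5-fold and 3-fold thresholds, median centring, loess correction (span 0.3, 3 iterations), repeated quantile normalization, filters at percentile 50 or 25 of the array, and the mean over probe sets. A median was counted as moved past 0.184, the robust SD between the LoVo-R8 arrays, which stands in for a replicate spread. The study's detection filter was not repeated. The software was Python 3.11.15, pandas 2.3.3, numpy 2.4.6, matplotlib 3.10.9 and statsmodels 0.14.6.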

Additional observations from a re-analysis of the deposited data

Results flagged for a closer look

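SESN2 lay on opposite sides of parental LoVo in the 2 resistant cultures. Its log2 difference from parental LoVo was -0.36 with irinotecan and 0.87 without it, and the difference between the LoVo-R8 arrays was -1.22. With 1 array in each culture this difference was not tested. DDIT4, which was not among the 44 genes, had -0.99 and 0.59 and a difference of -1.58 between the LoVo-R8 arrays.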

How the results depend on the processing

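No value has a replicate, so no array could be left out, and differences of the size seen between the LoVo-R8 arrays limit what small values show. No paired analysis was possible because each condition has 1 array. At 1.5-fold, 6 genes were higher and 4 lower than in parental LoVo with irinotecan, 8 and 6 without it, and 1 and 3 with irinotecan against without it. At 3-fold, SESN3 was the 1 gene higher in each resistant culture, 0 were lower without irinotecan, and 0 were higher or lower between the LoVo-R8 cultures. The share of all genes at 3-fold was not counted. RRAGD between the LoVo-R8 cultures was just past 2-fold (1.05) and fell short of it with repeated quantile normalization (0.996, or 0 genes higher). PRKAB2 with irinotecan passed 2-fold with loess correction (1.02) and repeated quantile normalization (1.03), as did SESN1 without irinotecan (1.07 and 1.08). Of 528 single-gene differences recomputed under median centring, loess correction, quantile normalization and the mean over probe sets, 5 crossed 2-fold, 0 of those past 2-fold turned in sign, and the largest shift was 0.114. The medians of the 44 genes moved by less than 0.184 under every scaling and filter run.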
